A study of Mus musculus with 800 samples.

Results

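Ribosomal protein genes encode the proteins that, with the ribosomal RNAs, build the cytosolic ribosome, the particle that translates messenger RNA in every cell. Of the 32285 genes in the count table, 82 were taken by name: symbols starting with Rpl (large subunit, 49 genes) or Rps (small subunit, 33 genes) and followed by a number, by a for the small-subunit protein Rpsa, or by p0 to p2 for the stalk proteins. Of the 101 rows with such a start, 10 Rps6k kinase genes, 5 pseudogenes and 4 X-linked genes (Rpl10, Rpl36a, Rpl39 and Rps4x) were left out. The name rule also takes in genes that are not core ribosomal proteins: Rps19bp1, whose product binds RPS19, the Rps27 retrogene Rps27rt, and the paralogs Rps27l, Rpl22l1, Rpl7l1, Rpl36al, Rpl3l, Rpl10l and Rpl39l.

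The measured samples were 800 single nuclei of C57Bl/6J mice, labelled as anterior lateral motor cortex, with 40 nuclei for each of 20 adeno-associated virus vectors. All mice received a PHP.eB-capsid vector at 5e11 vg per mouse, and all nuclei were sorted 3 to 4 weeks later for the reporter SYFP2, a yellow fluorescent protein carried here on histone H2B. Each vector carries another promoter or enhancer before that reporter (hSyn1, CMV, hI56i, DLX2.0 and 16 elements known by an AiE code), so a vector sets which nuclei were sorted, and there was no uninjected group. Animals are not named in the labels, and each vector label is treated as 1 sample, and spread between vectors includes the different cells each one marked.

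A ribosome needs about equal amounts of its proteins, and in most mammalian cells their messenger RNAs are among the most abundant and are controlled mainly at translation. That control acts on a run of pyrimidines at the very start of the message, the terminal oligopyrimidine tract, which is read by LARP1 and the mTOR pathway. Most ribosomal protein message lies in the cytoplasm, which a preparation of nuclei largely removes, so nuclear libraries hold mainly RNA that is being made, processed or exported.

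RefSeq promoter sequences (GRCm38.p6) were matched for 62 of the 82 members. A run made of a C and then only C or T, beginning within 10 bases of the annotated start on the gene's strand, was at least 8 bases long in 20 of the 62 members (32.3%) and in 2171 of 27025 genes in all (8.03%). It was at least 5 bases long in 56.5% of the members, in 30.8% of all genes and in 42.0% of 69 mitochondrial ribosomal protein genes. The lines below show the 20 bases before and the 20 bases from the start of 8 members described further on, with the run in capitals. They cover a long tract (Rpl27a at chr7:109519175-109519214, plus strand, and Rps6 at chr4:86857348-86857387, minus strand) and the retrogene pair (Rps27 at chr3:90213629-90213668 and Rps27rt at chr9:114982720-114982759, both minus). They also cover the genes of highest level (Rpl4 at chr9:64173367-64173406, plus, and Rpl41 at chr10:128549149-128549188, minus). Rps24 (chr14:24490658-24490697, plus) and Rpl23 (chr11:97782420-97782459, minus) had the smallest p of the members in a comparison of cell classes. By edgeR's quasi-likelihood test Rps24 passed the adjusted threshold in no comparison.
Rpl27a: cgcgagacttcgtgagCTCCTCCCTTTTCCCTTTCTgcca
Rps6: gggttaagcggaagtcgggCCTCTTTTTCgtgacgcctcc
Rps27: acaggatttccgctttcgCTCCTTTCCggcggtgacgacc
Rps27rt: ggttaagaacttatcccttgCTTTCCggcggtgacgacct
Rpl4: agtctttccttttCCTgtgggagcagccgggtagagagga
Rpl41: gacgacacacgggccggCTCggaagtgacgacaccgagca
Rps24: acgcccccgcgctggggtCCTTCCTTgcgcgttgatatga
Rpl23: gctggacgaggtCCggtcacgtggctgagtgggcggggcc
The run was 20 bases long in Rpl27a, 10 in Rps6, 9 in Rps27 and 8 in Rps24, and 3 or fewer in Rpl4, Rpl41 and Rpl23. A stretch of C and T that began earlier was counted only from its first C within the 10 bases, also in the shares above. In Rpl4 the capitals are thus the end of a longer stretch, whose earlier part is printed in small letters. The window is set by the annotated start, which need not be the start used in these nuclei. A short run says only that no longer one begins at a C within this window.

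Depth had a median of 260170.5 counts per nucleus and ranged from 70 to 901264. The 698 nuclei with at least 1000 genes detected were clustered without the ribosomal protein genes and named from marker genes: 273 GABAergic-like (inhibitory neurons), 161 striatal projection neuron-like, 108 glutamatergic-like (excitatory neurons), 106 astrocyte-like and 50 oligodendrocyte-like. The striatal projection neuron-like nuclei went against the cortex label: all 12 of their markers, Drd1, Drd2 and Ppp1r1b among them, were found in at least 25% of them, at a summed 10153 CPM (counts relative to 1000000 in the library), and the series design states that striatum was sorted too. Within the classes, 47 nuclei were led by the markers of another class, and 23 (17 astrocyte-like, 6 striatal projection neuron-like) held more than 5000 CPM of RNA encoded by the mitochondrial genome. Endothelial and mural markers summed to 434 and 444 CPM in astrocyte-like nuclei, and to at most 15.8 and 83.3 CPM in any other class.

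Together the 82 members made up a few thousandths of all counts in each vector. The summed level over the 40 nuclei was lowest in AiE0140h at 2458 CPM (95% Poisson interval 2427 to 2490, which covers counting error only), had a median of 3023 CPM and was highest in AiE0390m at 3761 CPM. The levels of the 20 vectors formed a continuous range with an SD of 327 CPM (CV 10.8%) and a 1.53-fold span. AiE0390m was led by astrocyte-like nuclei (25 of 40) and AiE0140h by GABAergic-like nuclei (13 of 40), and counts encoded by the mitochondrial genome were 3108 CPM in the first and 229 CPM in the second. The part of cell makeup or of mitochondrial RNA in this order was not tested, and no test was run between vectors.

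Single members differed far more than the sum. The median member had a mean of 34.1 CPM over the 20 vectors, above 72.0% of the 22566 genes with any count, and members ran from 0 to 133 CPM. The 8 members highest in CPM held 23.1% of the members' counts. Rpl4, a large-subunit protein that lines the exit tunnel, led with 133 ± 50.3 CPM (SD, n = 20 vectors; 53.2 to 227). Rpl41, the smallest ribosomal protein, followed with 104 ± 29.6 CPM (65.6 to 192), and Rpl6, of the large subunit, with 102 ± 35.1 CPM (54.9 to 171). The spreads of these 3 overlapped fully. Next were Rps24 (87.9 ± 47.8 CPM) and Rps3 (69.9 ± 37.7 CPM) of the small subunit, and Rpl3 (76.5 ± 41.5 CPM), Rpl7 (63.9 ± 25.2 CPM) and Rpl9 (62.7 ± 30.5 CPM) of the large. None of these neighbours in the order differed beyond its spread.

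Counts from full-length libraries grow with transcript length, and per kilobase of transcript the order changed. Rpl41 was highest at 179 CPM per kb, followed by Rps27 at 142, Rps21 at 129 and Rps15 at 101 CPM per kb, all of them short messages. Rps13 (93.2 CPM per kb), Rpl36 (89.3), Rpl4 (86.5) and Rpl9 (84.9) came next, so that Rpl41, Rpl4 and Rpl9 were in both sets of 8. The median member was at 39.9 CPM per kb.

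By role, the proteins of the ribosomal stalk, which recruits the translation factors, were not at equal levels per length: Rplp0 was at 38.9, Rplp1 at 69.8 and Rplp2 at 37.6 CPM per kb. In CPM they were at 52.8 ± 29.4, 34.9 ± 16.7 and 36.2 ± 17.7 (SD, n = 20 vectors), with overlapping spreads. The difference per kb between Rplp1 and Rplp2 rests on their annotated lengths of 499 and 964 bases. Rps27a, made as a fusion with ubiquitin, was at 46.4 CPM per kb. Rpl27a, a large-subunit protein with the longest pyrimidine run shown, was at 13.1 CPM per kb (15.2 ± 8.78 CPM, n = 20 vectors), with counts in 15.9% of nuclei. Rps6, the substrate of S6 kinase, was at 31.8 CPM per kb and Rpsa, also known as a laminin receptor, at 20.9 CPM per kb. Rpl3, which lies at the peptidyl transferase centre, was at 56.6 CPM per kb. Its striated-muscle paralog Rpl3l had counts in 5 of 800 nuclei (0.625%, exact Clopper-Pearson 95% interval 0.203 to 1.45%), 16 of 20 vectors had none, and its mean was 0.985 CPM per kb. Of the other paralogs, Rpl22l1 was at 59.7 CPM per kb, against 7.28 CPM per kb for Rpl22. That difference rests in part on their annotated lengths of 552 and 2051 bases. In CPM they were at 32.9 ± 22.2 and 14.9 ± 12.5 (SD, n = 20 vectors), with overlapping spreads. Rps27l was at 39.8, Rpl36al at 18.3 and Rpl7l1 at 11.2 CPM per kb. Rps19bp1 was at 20.6 CPM per kb. Rpl39l had a count in 0.125% of nuclei, and Rpl10l, which is known from testis, had none, which allows a share of nuclei with a count of up to 0.460% (exact Clopper-Pearson).

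Most members were found in a minority of nuclei. A count was present in at least 50% of nuclei for 2 members, in 10 to 50% for 75 and in under 10% for 5 (Rps27l, Rps19bp1, Rpl3l, Rpl39l and Rpl10l). The median member was detected in 21.4% of nuclei, and its level in nuclei that had it had a median over members of 98.9 CPM. For all genes, the median count where detected was 42. For members it was 20 in the glutamatergic-like class and 23 in the GABAergic-like and striatal projection neuron-like classes. It was 40 for astrocyte-like nuclei, 63 for oligodendrocyte-like ones and 91 for nuclei below the gene minimum. Members were thus not uniformly high where found. Rpl4, first by mean level, had counts in only 26.3% of nuclei (23.2 to 29.4%), at a median of 329 CPM where found. Rpl41 was found in 51.9% (48.3 to 55.4%) at 146 CPM and Rpl6 in 43.8% at 199 CPM. These libraries carry no molecular barcodes, so a high level in a nucleus can come from few molecules.

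**Figure D1:**
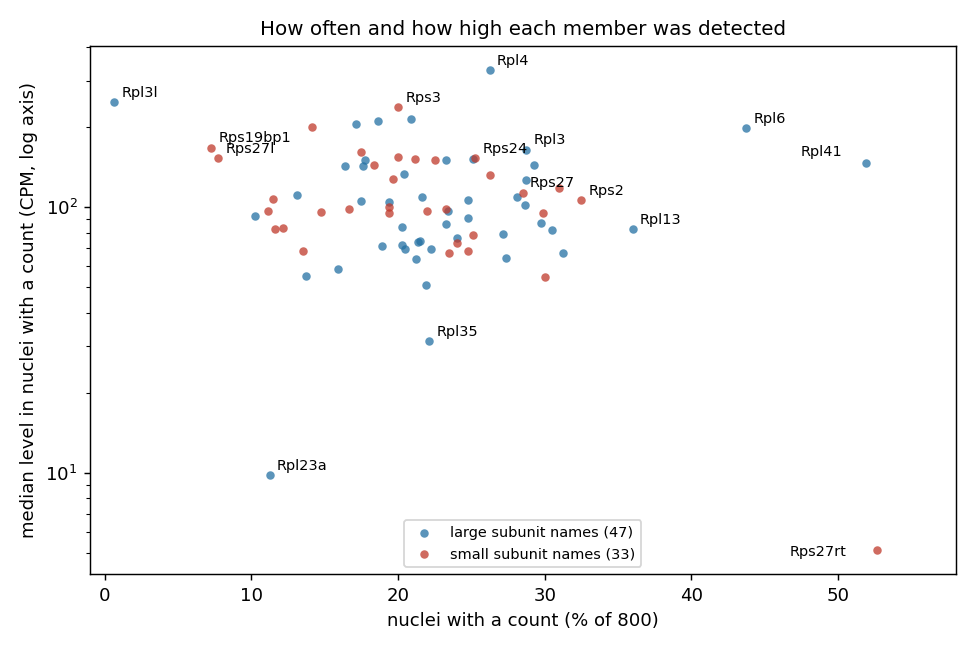
Percent of the 800 nuclei with a count (x axis) and median level in those nuclei in CPM (y axis, log scale) for 80 members, with large-subunit names in blue and small-subunit names in red. Rpl10l and Rpl39l, with counts in 0 and 0.125% of nuclei, are not drawn. Most members lie between 10 and 50% of nuclei, while Rps27rt (5.11 CPM, 52.6% of nuclei) and Rpl23a (9.77 CPM) are the lowest in level and all others are at 31.3 CPM or more.

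Rps27rt was both the member found in the most nuclei and, of the members drawn, the lowest in level where found. It had a count in 52.6% of nuclei, at a median of 1 count and 5.11 CPM, and its mean was 3.52 CPM with an SD of 1.0 (2.14 to 5.68 over the 20 vectors). Of its 421 nuclei, 355 had 1 or 2 counts and the highest had 13, while Rps27 reached 404 counts. The 2 transcripts (345 and 374 bases) align over 341 bases with 0 mismatches, and 98.7% of the 50-base words of Rps27 also occur in another gene. Rps27rt had a count in 60.5% of nuclei with Rps27 and in 49.5% of nuclei without it. Rps27rt overlaps Osbpl10, and it was found in 43.9% of nuclei with a count of Osbpl10 and in 53.1% of those without. Which of the copies or the host gene its reads come from was not tested, so its values are uncertain.

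Shared sequence touches most members. In the GENCODE M21 annotation of mm10, 78 of 82 share at least one 50-base word with another gene, and 39 share at least 50% of their words, with a median of 48.3%. Rpl35 (95.1%), Rpl5 (93.8%) and Rpl9 (93.3%) shared the most after Rps27, Rpl41 shared 43.9%, Rps24 19.1%, Rpl4 16.5% and Rps19bp1 0%. The count table lists none of the 294 Rpl and Rps genes with -ps in the symbol that this annotation types as pseudogenes (the 5 rows left out for such a symbol are not among them), and 40 members share words with another gene that it does list. Another listed gene overlaps 23 members, and strand was not kept, so for instance reads of Rpl23a (3.27 CPM) and of Tlcd1 (94.0 CPM), which overlap, cannot be told apart where they do. How multiply mapped reads were counted is not given in the sources used here, so levels of members with high sharing are uncertain.

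Between classes, the number of members detected in a nucleus followed the number of genes detected. Within classes the Spearman correlation of both numbers was 0.74 in glutamatergic-like, 0.67 in GABAergic-like, 0.60 in astrocyte-like, 0.42 in oligodendrocyte-like and 0.27 in striatal projection neuron-like nuclei, given as a description. The median nucleus held 22 members if GABAergic-like, 21 if glutamatergic-like, 18 if striatal projection neuron-like, 11 if astrocyte-like and 8.5 if oligodendrocyte-like. Median genes detected fell in a similar order, from 3128 and 3264.5 in the first pair to 2652, 1454 and 1139.5. Members were 0.708, 0.676, 0.664, 0.799 and 0.657% of the detected genes in these classes, so the share spanned far less than the number. Nuclei of these classes with at least 150000 counts were also thinned at random to that number. This left out 13, 7, 12, 2 and 1 nuclei with fewer counts, and the medians were 22, 20, 17, 10 and 8 members, in the same order. The level where a member was detected ran the other way, taken as the median over all pairs of member and nucleus with a count. It was 81.1 CPM in glutamatergic-like and 90.4 CPM in GABAergic-like nuclei. It was 100 CPM for the striatal projection neuron-like class, 130 CPM for astrocyte-like and 196 CPM for oligodendrocyte-like nuclei. Astrocyte-like and oligodendrocyte-like nuclei thus held fewer members, at a higher median level where detected. The level where detected was not computed for all genes by class. Whether this pattern is particular to the members was therefore not tested.

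**Figure D2:**
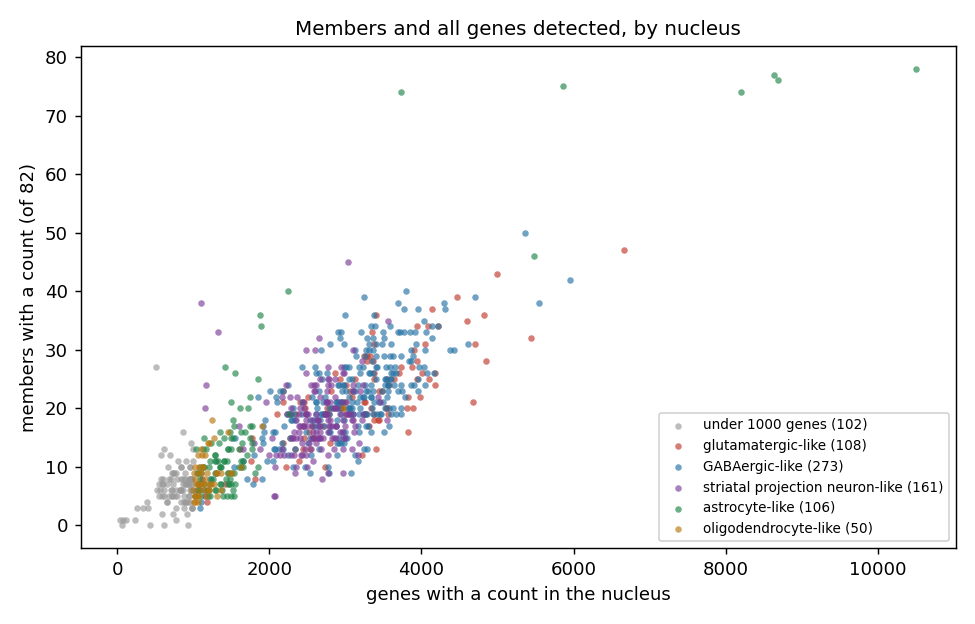
Genes with a count (x axis) and members with a count out of 82 (y axis) in each of the 800 nuclei, coloured by class. Points rise together most clearly in glutamatergic-like, GABAergic-like and astrocyte-like nuclei (Spearman 0.60 to 0.74). They do so least in striatal projection neuron-like nuclei (0.27) and in nuclei with too few genes detected to be given a class (0.25). Above all others, which end at 50, lie 6 astrocyte-like nuclei with 74 to 78 members.

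Of the 106 astrocyte-like nuclei, 6 stood apart with 74 to 78 members each, where no other nucleus of any class passed 50 and the median of the other astrocyte-like nuclei was 10. They came from AiE0078h, AiE0401h (2 nuclei), AiE0450h, AiE0391h and AiE0682h. Their summed member level was 4033 to 17362 CPM, against a median of 2468 CPM in the other astrocyte-like nuclei. They detected 3726 to 10499 genes and held 6260 to 66123 CPM of mitochondrially encoded RNA, against a median of 930 CPM in the others. Endothelial markers summed to 4775 to 17695 CPM in 4 of them and to 145 and 196 CPM in the other two. Mural markers reached 11672 and 12467 CPM in 2 of those 4, and the nucleus of AiE0682h held 36115 CPM of oligodendrocyte markers against 4462 CPM of astrocyte markers. The nucleus of AiE0078h held 5232 CPM of striatal projection neuron markers beside 5102 CPM of endothelial ones. Of the AiE0401h nuclei, 1 held 5007 CPM of GABAergic and 5002 CPM of striatal projection neuron markers beside 4775 CPM of endothelial ones. Markers of another cell type thus exceeded the astrocyte markers in 5 of the 6, all but the nucleus of AiE0391h (16967 CPM of astrocyte markers), which goes against the class name. Whether these hold cytoplasm, more than 1 nucleus or another cell type was not tested. Across the 106 astrocyte-like nuclei the number of members detected had a Spearman correlation of 0.60 with mitochondrially encoded level and 0.60 with genes detected, given as a description of nuclei that share vectors and depth.

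Summed over each vector's nuclei of a class, the members' levels overlapped in all 5 classes. Glutamatergic-like sums ran from 2249 to 3271 CPM with a mean of 2676 ± 322 CPM (SD, n = 12 vectors with at least 3 such nuclei). GABAergic-like sums ran from 2556 to 3514 CPM with a mean of 3013 ± 252 CPM (n = 18). Striatal projection neuron-like sums ran from 1627 to 4034 CPM with a mean of 2642 ± 638 CPM (n = 14). The ranges of all 3 neuronal classes overlapped. Astrocyte-like sums were the most uneven, at 1816 CPM in AiE0445h_3xC2, a median of 2750 CPM and 5814 CPM in AiE0401h, with a mean of 3148 ± 1267 CPM (n = 9). The value of AiE0401h rests on 4 nuclei, 2 of them among the 6 with 74 to 78 members. Oligodendrocyte-like sums ran from 1934 to 3046 CPM with a mean of 2491 ± 429 CPM (n = 7). Without nuclei above 5000 CPM of mitochondrially encoded RNA the astrocyte-like mean was 2483 ± 599 CPM (n = 8), below the GABAergic-like and near the oligodendrocyte-like one, and the striatal projection neuron-like mean was 2390 ± 538 CPM (n = 14).

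**Figure D3:**
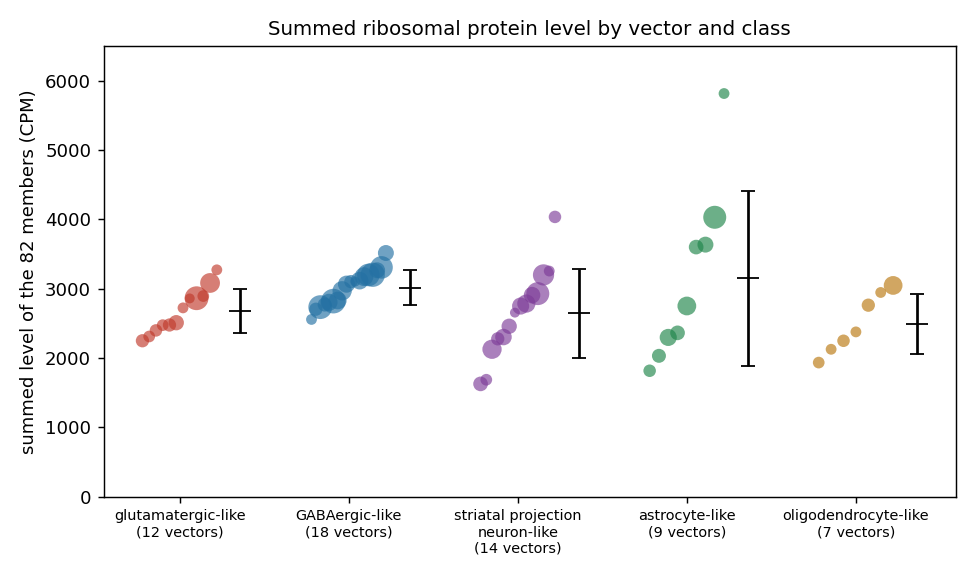
Summed level of the 82 members in CPM (y axis) for each vector (points, area by number of nuclei, spread sideways in order of level) in each class, with the mean and SD over vectors as bars. All 5 class ranges include 2556 to 3046 CPM, and 1 astrocyte-like sum of 4 nuclei stands at 5814 CPM.

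Within vectors, GABAergic-like sums exceeded glutamatergic-like sums in 10 of 12 vectors, by a mean of 330 CPM (SD of the difference 332). This order did not hold once the nuclear long noncoding RNA Malat1 was taken out of the library total. Malat1 was at 143262 CPM in GABAergic-like and 220156 CPM in glutamatergic-like sums of these vectors, higher in the latter in 12 of 12. Without it the members were at 3508 ± 314 CPM and 3426 ± 339 CPM, higher in GABAergic-like sums in 6 vectors and lower in 6. Striatal projection neuron-like sums were below GABAergic-like sums in 10 of 12 vectors, by a mean of 343 CPM (SD 720). Malat1 was at 222423 CPM in the former and 140791 CPM in the latter, and without it the members were at 3369 ± 814 CPM and 3454 ± 266 CPM, again with 6 vectors on either side. The members' part of all other counts thus had no common direction in either comparison. The recalculation without Malat1 within vectors was added after the first values were seen.

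Astrocyte-like sums were above those of all neuronal nuclei in 5 of 9 vectors and below in 4, with a mean difference of 227 CPM (SD 1360). Oligodendrocyte-like sums were below neuronal ones in 6 of 7 vectors, by a mean of 295 CPM (SD 497), and in 5 of 7 with Malat1 left out of the total. In sums such as these, fewer nuclei with a message and less message in each cannot be told apart.

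Ribosomal genes outside the members were measured in the same sums. Rack1, the scaffold protein of the small subunit, was at 170 ± 153 CPM (SD, n = 12 vectors) in glutamatergic-like, 113 ± 75.1 CPM (n = 18) in GABAergic-like and 102 ± 88.7 CPM (n = 14) in striatal projection neuron-like sums. It was at 44.3 ± 53.3 CPM (n = 9) in astrocyte-like and 15.6 ± 37.1 CPM (n = 7) in oligodendrocyte-like sums, and neighbours in this order overlapped. Fau, which encodes RPS30, was at 15.1 to 26.9 CPM in all 5 classes. The X-linked ribosomal genes summed to 126 ± 70.6 CPM in astrocyte-like and 92.5 ± 27.8 CPM in neuronal sums (higher in 6 of 9). RNA encoded by the mitochondrial genome was 2331 ± 1409 CPM in astrocyte-like and 349 ± 364 CPM in neuronal sums (higher in 8 of 9), and its part in the members' levels there was not tested.

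The profile across members was least alike between oligodendrocyte-like nuclei and the other classes. Over 80 members with a mean above 1 CPM in some class, the class means had a Spearman correlation of 0.75 between glutamatergic-like and GABAergic-like, 0.72 between GABAergic-like and striatal projection neuron-like, and 0.55 between glutamatergic-like and striatal projection neuron-like nuclei. With astrocyte-like nuclei it was 0.74 for GABAergic-like, 0.64 for striatal projection neuron-like and 0.61 for glutamatergic-like nuclei, so pairs of neuronal classes were not uniformly more alike than neurons and astrocyte-like nuclei. It was 0.31 to 0.44 between the other classes and oligodendrocyte-like nuclei, which are also the fewest (46 in the sums). Class means were highest in astrocyte-like nuclei for 24 members, in oligodendrocyte-like for 20, in GABAergic-like for 18, in glutamatergic-like for 10 and in striatal projection neuron-like for 8. They were lowest in oligodendrocyte-like nuclei for 39. Rpsa, for instance, was at 86.5 ± 48.4 CPM in oligodendrocyte-like sums and at 19.7 ± 26.3 CPM in striatal projection neuron-like sums, while Rpl41 was at 42.8 ± 58.8 CPM and 112 ± 25.4 CPM. These are levels with wide spreads, given as a description. The astrocyte-like sums of AiE0401h, AiE0450h and AiE0391h hold nuclei from the 6 with 74 to 78 members. The part of those nuclei in the count of 24 was not tested.

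**Figure D4:**
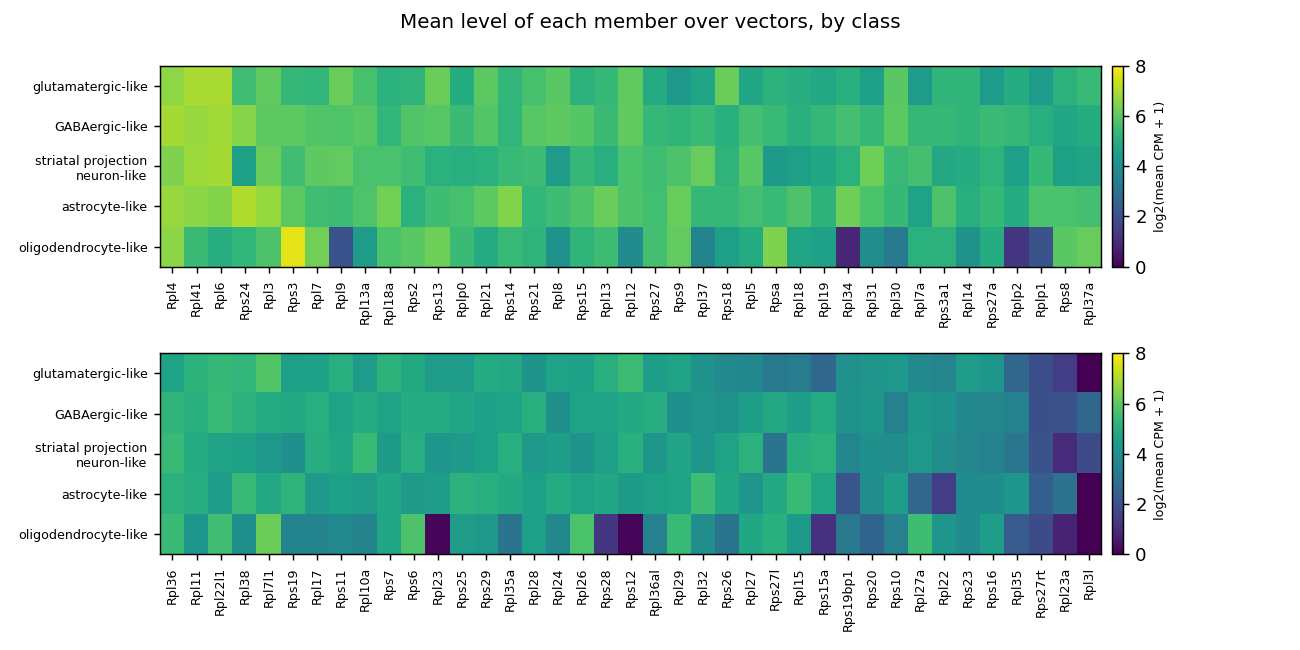
Mean level over vectors as log2(CPM + 1), from 0 (dark) to 8 (bright), of 78 members (columns, ordered by overall mean in both panels) in 5 classes (rows). The oligodendrocyte-like row is the most uneven, with dark cells for Rpl34, Rplp1, Rplp2, Rpl23, Rps28 and Rps12 beside bright ones for Rps3 and Rpsa.

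Single members were then compared between classes by edgeR's quasi-likelihood test on counts summed per vector and class, with the vector as a block and Benjamini-Hochberg adjustment over all genes tested. Between GABAergic-like and glutamatergic-like nuclei 0 of 76 members tested passed the adjusted threshold of 0.05, where 3.16% of all 8943 genes did. At an unadjusted p under 0.05, 1 member passed, and DESeq2 called 4 (3 higher, Rps15a and Rps24 among them, and Rps18 lower), where it called 11.2% of all genes higher and 5.92% lower. The member with the smallest p was Rps24, a small-subunit protein with alternatively spliced 3′ exons. Its GABAergic-like sums ran from 31.1 to 254 CPM with a median of 88.7 CPM, and its glutamatergic-like sums from 0 to 219 CPM with a median of 25.6 CPM. It was higher in 11 of 12 vectors although the ranges overlapped, with a log2 fold change of 1.97 (SE 0.94, edgeR quasi-likelihood adjusted p = 0.423). Also among the 4 smallest p, neither passing, were Rps15a (log2 fold change 3.63, SE 2.06) and Rps27l (3.53, SE 2.08). The members' median log2 fold change was 0.37, beside 0.34 over all genes tested.

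Rps24 also led the comparison of striatal projection neuron-like with GABAergic-like nuclei, which shares the GABAergic-like sums of 9 of its 12 vectors with the comparison above. Here 0 of 76 members passed, where 8.53% of 9210 genes did. At an unadjusted p under 0.05, 1 member passed, and DESeq2 called 10, all lower, where it called 22.8% of all genes lower. Rps24 ran from 0 to 104 CPM with a median of 10.4 CPM in striatal projection neuron-like sums and from 31.1 to 119 CPM with a median of 82.4 CPM in GABAergic-like sums. It was lower in 11 of 12 vectors, with a log2 fold change of -3.17 (SE 1.15, edgeR quasi-likelihood adjusted p = 0.100). Then came Rps13 (log2 fold change -1.98, SE 1.01) and Rpl4 (-2.09, SE 1.17), neither passing. Rps13, a small-subunit protein, was lower in 11 of 12 vectors, with medians of 18.6 and 67.6 CPM. The members' median log2 fold change was -0.46, beside -0.62 over all genes.

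Over all vectors of each class, mean levels of Rps24 were 132 ± 118 CPM in astrocyte-like, 93.4 ± 62.1 CPM in GABAergic-like, 45.9 ± 61.7 CPM in glutamatergic-like, 38.3 ± 54.1 CPM in oligodendrocyte-like and 22.4 ± 32.6 CPM in striatal projection neuron-like sums. No neighbours in this order differed beyond their spread. For the stalk, Rplp0 means were 42.6, 29.6 and 31.5 CPM and Rplp1 means 31.7, 19.9 and 39.8 CPM in GABAergic-like, glutamatergic-like and striatal projection neuron-like sums.

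Between astrocyte-like and neuronal-like nuclei 1 of 78 members passed, on the lower side, where 13.7% of 10074 genes were lower and 3.88% higher. It is no ribosomal protein. Rps19bp1 was at 0 in 7 of 9 astrocyte-like sums and reached 23.4 CPM in 1, while neuronal sums ran from 3.53 to 56.1 CPM with a median of 21.2 CPM. It was lower in 8 of 9 vectors, and the groups overlapped in the other. The fitted log2 fold change was -7.72 (SE 2.23, edgeR quasi-likelihood adjusted p = 0.0193) and depends on how zeros are handled. The call was lost without AiE0445h_3xC2, AiE0600m or AiE0743m_3xC2 (edgeR quasi-likelihood adjusted p 0.0520 to 0.0527). Without the vector as a block, 0 members passed, where 3.90% of all genes were lower and 4.06% higher. DESeq2 called 8 members, 1 higher and 7 lower, where it called 7.11% of all genes higher and 43.8% lower.

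Next by p, not passing, was Rpl22, a large-subunit protein that also binds structured RNA. Its astrocyte-like sums ran from 0 to 7.43 CPM with a median of 0, and its neuronal sums from 1.69 to 36.5 CPM with a median of 12.5 CPM. It was lower in 9 of 9 vectors, with a log2 fold change of -4.57 (SE 2.0, edgeR quasi-likelihood adjusted p = 0.120). Rps15a (log2 fold change -4.02, SE 2.33) and Rpl7l1 (-5.02, SE 2.93) followed. For both, the astrocyte-like median was 0 while 1 vector reached 198 and 169 CPM, so that the means of the 2 groups were close (25.5 and 27.3 CPM for Rps15a, 27.3 and 24.6 CPM for Rpl7l1). The members' median log2 fold change was -0.43, beside -1.82 over all genes. Without the block these medians were 0.33 and -0.31, so the sign for the members depends on the block. Of the genes of ribosome assembly, 7 of 42 tested were lower in astrocyte-like nuclei, near the 13.7% of all genes that were lower, among them Pes1 (log2 fold change -7.05, SE 2.05), Utp4 (-8.02, SE 2.37) and Nop58 (-7.83, SE 2.50), which act in rRNA processing, and 0 were higher. The mitochondrially encoded genes mt-Cytb (4.16, SE 1.25) and mt-Co1 (3.24, SE 1.03) were higher, 2 of 7 tested.

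Between oligodendrocyte-like and neuronal-like nuclei 18 of 73 members were lower (24.7%) and 0 higher, where 41.6% of 8107 genes were lower and 2.04% higher. The share of members called lower was below that of all genes tested, and that difference was not tested. DESeq2 called 43 members lower, where it called 68.3% of all genes lower. The members' median log2 fold change was -4.33, beside -5.70 over all genes. Most oligodendrocyte-like sums were at 0 for the members called, so fitted fold changes depend on the prior count and are not sizes of effect.

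Rpl23, a large-subunit protein that also binds MDM2, had the smallest p of the members. It was at 0 in 6 of 7 oligodendrocyte-like sums and at 0.526 CPM (1 count) in the other, while neuronal sums ran from 9.46 to 66.9 CPM with a median of 20.9 CPM. The groups did not overlap (log2 fold change -8.91, SE 2.32, edgeR quasi-likelihood adjusted p = 0.00115). Rpl34 reached 5.79 CPM in 1 of 7 oligodendrocyte-like sums and was at 0 in the rest, with 13.5 to 45.5 CPM in neuronal sums (median 26.1), again without overlap. Rpl9 was at 0 in 6 of 7 and at 21.6 CPM in the other, with 33.4 to 225 CPM in neuronal sums (median 61.5). For these 3 genes the adjusted p of the same test stayed below 0.05 without any single vector (at most 0.0139). With nuclei of at least 500 genes, which took the oligodendrocyte-like nuclei from 50 to 125, Rpl34 kept its call and Rpl23 and Rpl9 lost theirs.

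The acidic stalk pair behaved alike in that comparison: Rplp2 was at 0 in 6 of 7 oligodendrocyte-like sums and at 9.90 CPM in the other, below all neuronal sums (12.1 to 53.0 CPM), and Rplp1 was at 0 in 6 and at 22.2 CPM in the other, within the neuronal range (6.49 to 68.1 CPM). Rplp0, which anchors the pair to the ribosome, was not called (log2 fold change 0.40, SE 2.25), with an oligodendrocyte-like mean of 42.9 ± 49.4 CPM over 7 vectors. Rps28 (adjusted p 0.00284), Rpl12 (0.00636), which lies at the stalk's base, and Rps20 (0.00758) were the others of the 8 with the smallest p from edgeR's quasi-likelihood test. Rps28 overlaps Kank3, and Rpl9 shares 93.3% of its words with other genes. Title runs are taken here as blocks of 8 consecutive title numbers of a vector, and the labels do not name them as a batch. No member passed when the classes were cut to equal numbers of nuclei, when either main library series was used alone, or when every title run that held a nucleus of the striatal projection neuron-like class was left out. Of all genes, 13.4%, 1.21 and 2.72%, and 1.96% were lower in these fits. There were 2 (Rpl23 and Rpl34) without the vector as a block, where 11.3% of all genes were lower, and 9 without DLX2.0, where 31.2% were. With nuclei of at least 500 genes 7 of 74 members were lower while 44.2% of all genes were. Of the 18 calls 5 remained there, Rpl12 and Rpl34 among the genes named above, and Rplp1, Rplp2, Rps20 and Rps28 lost theirs.

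**Figure D5:**
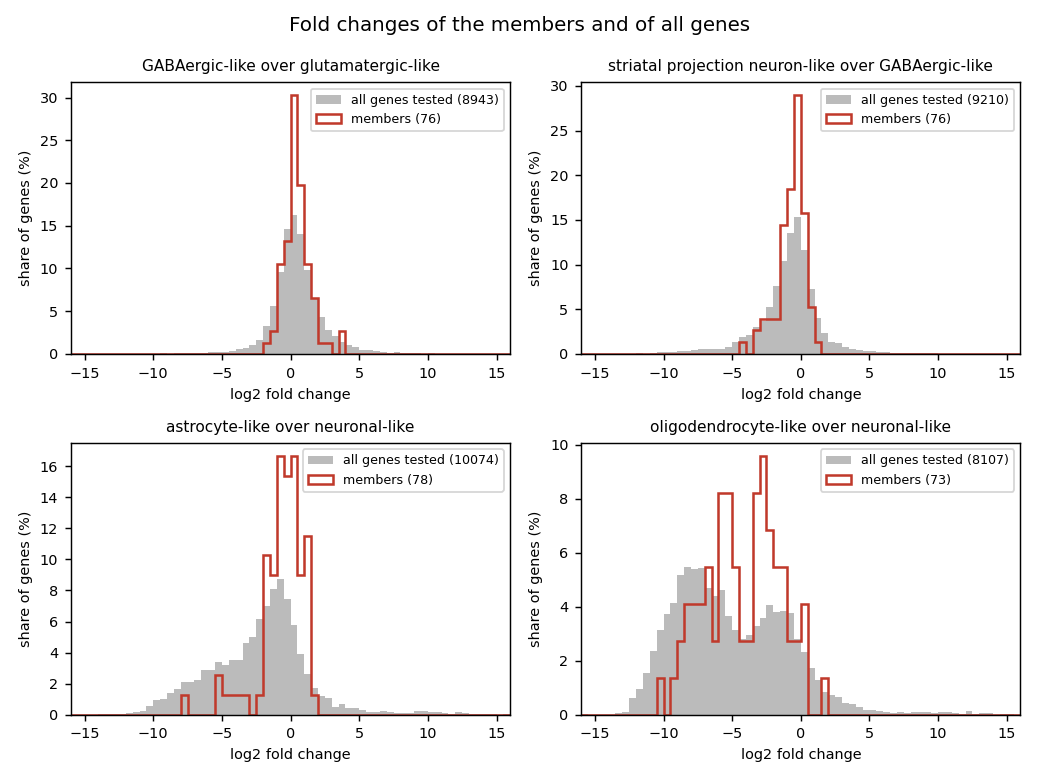
Share of genes in percent (y axis) by fitted log2 fold change (x axis) for all genes tested (grey) and for members (red outline) in 4 comparisons. Members lie near all genes in both neuronal comparisons (medians 0.37 and 0.34, -0.46 and -0.62), and closer to 0 than all genes against astrocyte-like (-0.43 and -1.82) and oligodendrocyte-like nuclei (-4.33 and -5.70).

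For the rest of the translation machinery, 0 genes of the 8 lists used were called by edgeR's quasi-likelihood test between GABAergic-like and glutamatergic-like or between striatal projection neuron-like and GABAergic-like nuclei. At an unadjusted p under 0.05, 0 to 4 genes of a list passed, and DESeq2 called 0 to 9. In oligodendrocyte-like nuclei 0 of 6 elongation factors passed, while 6 of 29 initiation factors were lower, with Eif3f (log2 fold change -10.18, SE 2.48), Eif1ax (-7.86, SE 2.36) and Eif4b (-8.06, SE 2.77) first by p. Of the genes that control messages with a pyrimidine tract, 4 of 14 were lower, among them Tsc2, an inhibitor of mTOR signalling (-10.11, SE 2.86), Larp1, which binds the tract (-10.04, SE 2.89), and Tpt1, itself a message of this kind (-7.48, SE 3.02). Ribosome assembly genes were lower for 17 of 38, noncoding hosts of small nucleolar RNAs for 5 of 8 (Snhg6, -9.95, SE 2.34; Snhg12, -7.71, SE 2.12), and mitochondrial ribosomal protein genes for 26 of 69. Rack1 was 1 of 2 of the remaining cytosolic ribosomal genes tested (-9.08, SE 3.06), and mt-Nd4 and mt-Cytb were 2 of 3 mitochondrially encoded genes. No gene of these lists was higher, and the 41.6% of all genes called lower applies to these counts too. In astrocyte-like nuclei the lists other than ribosome assembly gave 1 lower gene of tract control (Eif4ebp2, -5.48, SE 1.70), 1 lower mitochondrial ribosomal protein gene of 76 (Mrps27, -7.38, SE 1.96) and no other lower gene.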

How the data were processed

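The authors deposited a table of read counts per gene for 2501 single-nucleus SMART-Seq v4 libraries (full-length cDNA from polyadenylated RNA, without molecular barcodes or strand), and 800 columns matched sample labels by library name. The other 1701 columns were not analysed here. Per the submitters' processing notes, STAR 2.7.2a and mm10 were used. What annotation served for counting, and whether introns and multiply mapped reads counted, is not given in the sources used here. Symbols were found for 32158 of 32285 genes, and overlaps, transcript lengths and shared 50-base words were computed from GENCODE M21 (mm10), which need not be the authors'. Length was that of the longest transcript marked there as principal, which need not be the one present in these nuclei.

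Counts were scaled to CPM of each library total. Nuclei with at least 1000 genes were clustered with scanpy 1.11.5 and leidenalg 0.10.2 (2000 variable genes without the ribosomal and translation genes, 30 components, 15 neighbours, resolution 1). Clusters were named, with the ending "-like", from the marker list with the highest relative level and at least 3 markers in 25% of nuclei. This scoring was settled after the clusters were seen. No doublet caller was run on these sorted single nuclei. Counts of a class were summed per vector where at least 3 nuclei of each class were present. Sums were tested with edgeR 4.0.16 in R 4.3.3 (TMM, filterByExpr, quasi-likelihood F test, vector as block, Benjamini-Hochberg over all genes, threshold 0.05). Neuronal-like joins the 3 neuronal classes. Each standard error was obtained by dividing the size of the log2 fold change by the root of its F statistic. The procedure was run on simulated data with known large changes in genes with ample counts, the same spread for all genes and no vector effect. That setting does not cover sums that are mostly zeros, as for many members in oligodendrocyte-like nuclei. Both sums of a pair come from the same vector label, which is the source of the pairing. Since no animals are named, p-values measure the spread between vector labels.

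Named are the 8 highest members by CPM and by CPM per kilobase, members past the threshold (at most 8 by p, or the 4 smallest p where fewer than 4 pass), genes of set roles and paralogs, and up to 3 genes per direction of each list. A few genes are not reported here by name. The members and lists were chosen with earlier results of these data known. Alternatives were other scaling, filters, gene minimums, clustering resolution, DESeq2 1.42.0, no block, equal nuclei, single library series, Malat1 left out of the total, and each vector left out. Shares carry exact Clopper-Pearson and levels exact Poisson 95% intervals, which cover counting error only.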

Additional observations from a re-analysis of the deposited data

Results flagged for a closer look

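The 102 nuclei with fewer than 1000 genes entered no comparison at that minimum (all but 10 of them were classed in the alternative with at least 500 genes), and their summed ribosomal protein level was 3479 CPM, above the median of 3023 CPM over the vectors. They had a median of 6 members and 812.5 genes detected. Over all pairs of member and nucleus with a count, their median level was 368 CPM, against 81.1 to 196 CPM in the named classes. Counts encoded by the mitochondrial genome were 1050 CPM in their sum. No labelled control exists for these nuclei, and what sets their level was not tested.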

How the results depend on the processing

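Of the numbers of members called and the summed levels under an alternative, 110 stayed the same and 26 moved. A number stayed the same if equal, 0 and 0 included, or within a factor of 1.5. A level did so if it shifted by less than its SD over vectors. Of the other values, fold changes of named members among them, 346 stayed the same, 36 lost their call, 11 gained one and 4 changed sign. DESeq2 called more members throughout: 4 between GABAergic-like and glutamatergic-like, 10 between striatal projection neuron-like and GABAergic-like, and, against neuronal-like nuclei, 43 for oligodendrocyte-like and 8 for astrocyte-like ones. It also called more of all genes each time, at the shares given above. In astrocyte-like nuclei the single call became 0 without the replicate block, with at least 2000 genes per nucleus, with equal numbers of nuclei and in series S40324 or S40326 alone, and 3 (Rpl7l1, Rps19bp1 and Rps27l) without nuclei above 5000 CPM of mitochondrially encoded RNA, an alternative added after seeing the data. Of all genes, 3.90, 0.194, 7.12, 0.326 and 3.20% were lower in the fits with 0 calls, in the order given. In the fit with 3 calls 20.3% of all genes were lower. Leaving out each vector gave 0 to 1. In oligodendrocyte-like nuclei the 18 calls became 2 without the replicate block, 7 with at least 500 genes, 0 with equal numbers of nuclei, in either series alone and without title runs that held any nucleus of the striatal projection neuron-like class, and 9 to 16 when each vector was left out. The vector label pairs the sums. Without the replicate block 0 members were called in both neuronal comparisons, as with it. With Malat1 out of the library total, the class levels were 3426 CPM (glutamatergic-like), 3517 (GABAergic-like), 3395 (striatal projection neuron-like) and 3034 CPM (oligodendrocyte-like), with a vector median of 3705 CPM. The oligodendrocyte-like level was 3145 CPM with at least 500 genes. Fold changes of Rps15a turned to -1.51 (GABAergic-like over glutamatergic-like) without those runs, and in astrocyte-like nuclei to 0.39 without the block and 0.19 with at least 2000 genes, while Rpl7l1 turned to 0.18 without the block. The cause was not tested. Oligodendrocyte-like and astrocyte-like nuclei shared 1 vector, so their comparison was not fitted; with at least 500 genes they shared 3, and edgeR's quasi-likelihood test called 0 of 53 members (0 at an unadjusted p under 0.05) and 2.14% of 4537 genes. Neither neuronal comparison could be fitted in series S40324 alone, nor oligodendrocyte-like nuclei with at least 2000 genes. Most members are absent from most nuclei, so sums of few nuclei, above all the 46 oligodendrocyte-like ones, hold many zeros, and a member's absence there was often not distinguishable from sampling.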

Other observations

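The genes whose level followed the members' summed level most closely over the 60 sums of vector and class, among 10561 genes that are no member, were Txndc15 (Pearson r 0.55), Ly6a (0.55), Selenow (0.53), Cd200 (0.53) and Psmb10 (0.53). The sums share vectors and libraries, and classes differ in depth, so these values describe these libraries.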
